A study of Mus musculus with 28 samples.

Results

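The data describe how carbon black particles and ozone combined in mouse lung after 1 exposure, as the log2 interaction of each gene: the particle difference in the presence of ozone (CB-O3 minus O3) minus the particle difference in its absence (CB minus sham). The members are the 16 day 1 libraries of the series' 28 RNA-seq libraries, 4 in each group, and every gene of the deposited table that passed a filter on low counts. Male wild-type C57BL/6 mice breathed carbon black at 10 mg/m3 together with ozone at 2 ppm (CB-O3), ozone alone at 2 ppm (O3), carbon black alone at 10 mg/m3 (CB), or air (sham, which the labels also name air), each for 3 h. Every group therefore shares strain, sex and genotype. Age is given as 8 weeks in the treatment protocol and as 8 to 12 weeks in the sample labels. The other 12 libraries come from day 4, after 4 daily exposures, with 3 in each group. Polyadenylated RNA from homogenate of the pulverized lung was sequenced, so each value averages over all cells of the organ, and a change in the number of cells of a type cannot be told apart from a change in RNA per cell. How long after exposure the lungs were taken is not stated in the labels. Nor do the labels say whether each library comes from a separate mouse, so the p-values speak only to the spread among libraries of a group, which may be technical.

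Carbon black is a powder of fused carbon spherules, used as a model of the elemental carbon core of combustion particles. Inhaled particles that reach the alveoli are taken up mainly by resident alveolar macrophages, and neutrophils and monocytes may follow from the blood. Ozone is a gas that reacts with lipids and proteins of the airway lining fluid before it reaches the cells, and it injures airway epithelium and the first alveoli. On the log2 scale an interaction of 0 means that the fold changes of the single exposures multiply: a gene raised by the particle in air is raised by the same factor on top of ozone. An interaction below 0 means a lower CB-O3 level than that product, and one above 0 a higher level. The same number also compares the ozone difference with and without the particle.

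Day 1 totals were 5922424 to 9718770 estimated counts per library, so that 3 counts, the smallest amount taken here as detection, equal 0.309 to 0.507 CPM. CPM is a gene's count set to a common library total, here after TMM scaling of the totals. Levels are given in CPM, in the order of replicates 1 to 4, and are not divided by transcript length, so levels of different genes are not compared. The tissue label fits its markers: Sftpc, the surfactant protein of alveolar type 2 cells, lay between 11810 CPM in O3 replicate 1 and 18750 CPM in CB-O3 replicate 4, and Pecam1 of endothelium between 471 CPM in CB-O3 replicate 3 and 829 CPM in sham replicate 1. Some libraries stood apart in genes of neighbouring tissue. The mean log2(CPM + 0.5) of 5 skeletal muscle genes was 6.35 in O3 replicate 2 and 7.45 in sham replicate 2, against 0.67 to 2.12 in the other libraries. That of 5 adipose genes was 6.38 in CB replicate 2 and 6.32 in sham replicate 2, against 1.99 to 4.11 in the others.

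Of 14344 genes tested, 898 (6.26%) had an interaction at an adjusted p under 0.05, 428 below 0 (2.98%) and 470 above 0 (3.28%). All adjusted p-values come from edgeR's quasi-likelihood test with Benjamini-Hochberg adjustment over all genes tested. The 2 directions differed in size. Below 0 the median interaction was -0.69 and 139 genes passed an absolute log2 value of 1, against a median of 0.54 and 15 such genes above 0; the median of all genes was 0.00. The particle alone changed few genes by this test: in CB against sham, 158 genes (1.1%) were called, 138 higher (0.962%) and 20 lower. In CB-O3 against O3, 259 genes (1.81%) were called, 203 higher (1.42%) and 56 lower. Ozone changed far more, with 2163 genes (15.1%) called in O3 against sham, 1234 of them higher (8.6%), and 4585 (32.0%) in CB-O3 against CB. The count of interactions depended on single libraries: it was 242 without sham replicate 3, 243 without CB-O3 replicate 3 and 304 without CB-O3 replicate 4, but 1222 without CB replicate 2 and 2108 without CB-O3 replicate 2, and lay between 395 and 1156 without any other library. That of CB against sham was 7 to 33 without sham replicates 1, 3 or 4 or CB replicates 3 or 4, 79 to 95 without any O3 library or CB-O3 replicate 3, and 447 without CB replicate 2. That of CB-O3 against O3 was 0 to 4 without O3 replicates 1, 2 or 3 or CB-O3 replicates 3 or 4, 77 to 136 without CB replicates 1 or 4, O3 replicate 4 or sham replicates 1 or 4, 613 without CB-O3 replicate 1 and 1949 without CB-O3 replicate 2. All 898 genes kept their sign in each of these fits. They were selected in the full fit, which shares all but 1 library with each of these fits, so this adds no separate evidence.

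**Figure D1:**
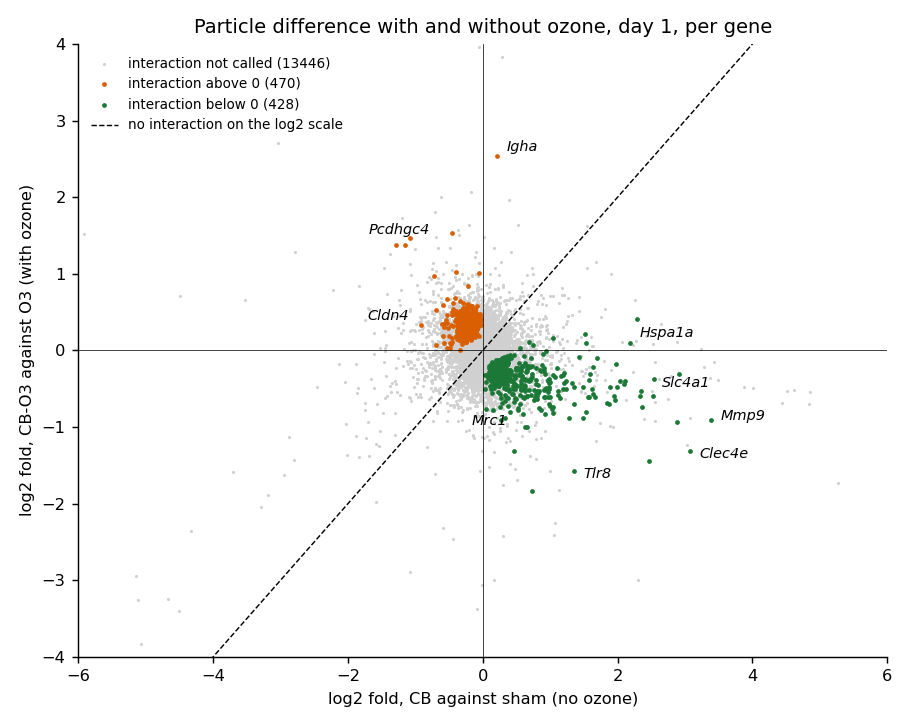
Each point is 1 gene, with the log2 fold of CB against sham on the x axis and that of CB-O3 against O3 on the y axis, so that a gene on the diagonal has no interaction; 9 genes outside the plotted range are left out. Genes called below 0 (428) lie mostly right of and below the origin, and genes called above 0 (470) left of and above it.

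In the great majority of called genes the particle differences had opposite signs by their fitted values. Of the 428 genes below 0, 420 were lower in CB-O3 than in O3 and higher in CB than in sham. Of the 470 above 0, 469 were the other way round. The genes were selected on the gap between these 2 differences, which by itself favours opposite signs. The genes below 0 had a median log2 difference of -0.34 in CB-O3 against O3 and of 0.34 in CB against sham. Of these 428 genes, 102 were called higher in CB against sham, 37 were called lower in CB-O3 against O3 and 5 were called in both. Those 5 were the macrophage genes Mrc1, Gpnmb, Atp6v0d2 and Ccl6, and Tlr8. Each lost its call in CB-O3 against O3 without O3 replicates 2 or 3 or CB-O3 replicates 3 or 4. With 1 library left out, that call was kept in 12 of 16 fits (Mrc1), 6 (Gpnmb), 10 (Atp6v0d2), 8 (Ccl6) and 6 (Tlr8). In the same order, the call in CB against sham was kept in 11, 16, 12, 12 and 3 of 16 fits. The remaining 294 were called in neither contrast alone. The genes above 0 had a median of 0.34 in CB-O3 against O3 and of -0.20 in CB against sham; 176 of the 470 were called higher in CB-O3 against O3, 15 were called lower in CB against sham, and 280 in neither. Plac9b was the 1 gene above 0 called in both, and it lost its CB-O3 against O3 call without the same libraries or O3 replicate 1. Its call in CB against sham was kept in 5 of 16 fits that left out 1 library. On the linear scale, no interaction means that differences in CPM add. There all 428 and all 470 genes had the same sign as on the log2 scale. Where the particle differences have opposite signs, both scales give the same sign by construction, so this adds no separate evidence.

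Neutrophil genes had interactions far below 0. Neutrophils are short-lived blood granulocytes that enter the air spaces within hours of an irritant. Of 16 tested genes on a list of 18, 6 had an interaction below 0 and none above (2.98% below among all genes tested). A negative value was found in 15 of 16, and in 7127 of all 14344 genes tested. The median interaction of the 16 was -3.82, against 0.00 for all genes. In CB against sham 11 of 16 rose (0.962% higher among all genes tested), with a median log2 difference of 2.99. That count was 1 without sham replicates 1, 3 or 4 or CB replicate 4, with limma-voom or with the replicate block, and it was 16 without CB replicate 2. In CB-O3 against O3 none was called in either direction, and the median was -0.52. In CB-O3 against CB 15 of 16 fell (15.5% lower among all genes tested), and 14 or more did with any 1 library left out. A second list, of granule genes of immature neutrophils, had 2 of 7 genes tested, Ngp at -7.01 and Ltf at 1.05, neither called. The summed level of all 18 genes of the first list, here without TMM scaling, was 161 to 217 CPM in CB-O3 and 161 to 251 CPM in O3 libraries. It was 281 to 4930 CPM in CB and 204 to 403 CPM in sham libraries.

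Clec4e encodes Mincle, a lectin receptor for glycolipids and dead cells (ENSMUSG00000030142, chr6:123281789-123289870, minus strand, GRCm38). It had 2.09, 1.51, 0.559 and 0.708 CPM in CB-O3 libraries, 2.18, 2.7, 3.58 and 3.76 in O3 libraries, 13.2, 4.21, 43.3 and 27.9 in CB libraries and 1.84, 4.87, 1.54 and 2.32 in sham libraries. The CB libraries did not overlap with CB-O3 or O3 libraries, and CB replicate 2 lay below sham replicate 2. Its interaction was -4.39 ± 0.94 (SE, adjusted p = 0.0208). The product of the single folds would give 25.6 CPM in CB-O3 libraries, where 1.22 ± 0.716 CPM were measured (SD, n = 4). Mmp9, the gelatinase stored in neutrophil granules, had 6.66, 5.58, 1.26 and 1.13 CPM in CB-O3 libraries, against 4.69, 9.39, 8.27 and 4.74 in O3 libraries. It had 57.3, 21.3, 221 and 99.8 CPM in CB libraries, against 6.31, 19.9, 7.21 and 5.24 in sham libraries. Its CB libraries all lay above every other library, and its interaction was -4.29 ± 1.15 (SE, adjusted p = 0.0459). Cxcr1, a receptor for neutrophil-attracting chemokines, had 0.131, 0.302, 0.14 and 0.424 CPM in CB-O3 libraries, 0.838, 0.469, 0.827 and 0.697 in O3 libraries, 2.75, 1.82, 5.1 and 4.54 in CB libraries and 0.395, 0.738, 0.901 and 0.488 in sham libraries. All CB libraries exceeded all others, 3 of the 4 CB-O3 libraries were under 3 counts, and the interaction was -3.90 ± 0.67 (SE, adjusted p = 0.0101).

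The remaining called members behaved alike in direction. Clec4d, a lectin that pairs with Mincle and lies beside its gene, averaged 1.81 ± 0.582 CPM in CB-O3, 2.26 ± 0.464 in O3, 28.9 ± 21.5 in CB and 3.88 ± 2.92 in sham libraries (SD, n = 4), and its interaction was -3.22 ± 0.88 (SE, adjusted p = 0.046). Trpm2, a calcium channel opened by oxidant stress, averaged 1.13 ± 0.59 CPM in CB-O3, 1.94 ± 1.02 in O3, 16.8 ± 8.64 in CB and 3.29 ± 1.78 in sham libraries, with an interaction of -3.10 ± 0.78 (SE, adjusted p = 0.032). For Trem1, a receptor that amplifies neutrophil activation, the means were 2.96 ± 0.586 CPM in CB-O3, 4.56 ± 1.74 in O3, 15.4 ± 10.3 in CB and 3.94 ± 1.55 in sham libraries and the interaction was -2.60 ± 0.64 (SE, adjusted p = 0.0307). Genes outside the list that the ranking of the lowest values brought in included Padi4, which citrullinates histones in neutrophils, at -2.93 ± 0.68 (SE, adjusted p = 0.0248), and Wfdc17, a small secreted protein of activated myeloid cells, at -2.91 ± 0.65 (SE, adjusted p = 0.0226). The call of Padi4 was kept in 12 of 16 (lost without sham 3, O3 2, CB-O3 3 or CB-O3 4, adjusted p 0.0111 to 0.0617). That of Wfdc17 was kept in 12 of 16 (lost without sham 3, O3 2, CB-O3 3 or CB-O3 4, adjusted p 0.00533 to 0.0586). That of Padi4 was also lost with limma-voom, with and without quality weights. Tlr8, an endosomal RNA sensor, had 2.35, 2.56, 1.54 and 0.708 CPM in CB-O3 libraries, against 5.03, 7.39, 4.68 and 4.18 in O3 libraries. It had 11.3, 7.29, 16.9 and 14.7 CPM in CB libraries, against 5.66, 7.09, 2.96 and 4.02 in sham libraries. The CB libraries were all above the sham libraries and the CB-O3 libraries all below the O3 libraries, and the interaction was -2.92 ± 0.49 (SE, adjusted p = 0.0101).

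Other neutrophil genes had values of similar size and missed the threshold. S100a8, a subunit of calprotectin, had 9.28, 6.94, 3.77 and 4.1 CPM in CB-O3 libraries, against 7.54, 10.2, 10.5 and 6.27 in O3 libraries. It had 281, 27.9, 1353 and 707 CPM in CB libraries, against 6.84, 56.9, 15.2 and 18.9 in sham libraries. CB replicates 1, 3 and 4 were above every other library, while CB replicate 2 lay below sham replicate 2. The interaction was -5.14 ± 1.53 (SE, adjusted p = 0.0634), with a 95% interval of -8.46 to -1.81. S100a9, the other subunit, had -5.04 ± 1.49 (SE, adjusted p = 0.0613), Retnlg, a resistin-like protein of neutrophils, -5.40 ± 1.55 (SE, adjusted p = 0.0575), the chemokine receptor Cxcr2 -3.73 ± 1.27 (SE, adjusted p = 0.0944) and the cytokine Il1b -2.77 ± 0.99 (SE, adjusted p = 0.105). Single libraries and the tool decided the count. It was 1 of 16 with limma-voom and 13 of 16 with DESeq2. It fell to 1 of 16 without sham replicate 3, CB-O3 replicate 3 or CB-O3 replicate 4, and reached 15 of 16 without CB replicate 2, while the median interaction stayed between -4.38 and -3.34 over the 16 fits. The call of Cxcr1, for which DESeq2 gave no adjusted p, was kept in 16 of 16 (adjusted p at most 0.0289), that of Tlr8 in 16 of 16 (adjusted p at most 0.0303), that of Clec4e in 13 of 16 (lost without sham 3, CB-O3 3 or CB-O3 4, adjusted p 0.00237 to 0.0539), that of Trem1 in 9 of 16 (lost without sham 3, sham 4, CB 4, O3 2, O3 4, CB-O3 3 or CB-O3 4, adjusted p 0.00909 to 0.0749), that of Trpm2 in 6 of 16 (kept without sham 2, CB 1, CB 2, O3 4, CB-O3 1 or CB-O3 2, adjusted p 0.00961 to 0.0778), that of Mmp9 in 4 of 16 (kept without sham 2, CB 2, CB-O3 1 or CB-O3 2, adjusted p 0.0168 to 0.101) and that of Clec4d in 4 of 16 (kept without sham 2, CB 1, CB 2 or CB-O3 2, adjusted p 0.0144 to 0.103).

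Genes of red cells and platelets followed the same course, at smaller size. Red cells reach a lung homogenate with the blood in its vessels, and young red cells still carry RNA. Of 10 tested red cell genes, 3 had an interaction below 0 and none above (2.98% below among all genes tested). Slc4a1 and Epb42, which encode membrane proteins of the red cell, were among the 3. A negative value was found in 10 of 10, and in 7127 of all 14344 genes tested. The list median interaction was -1.17. The median was -0.03 in CB-O3 against O3 and 1.11 in CB against sham, where 4 of 10 rose (0.962% of all genes tested). That count of 4 was 0 when any sham or O3 library or CB replicates 3 or 4 was left out. It was also 0 without CB-O3 replicates 2, 3 or 4, and 10 of 10 without CB replicate 1. Slc4a1, the band 3 anion exchanger, had 6.66, 11.5, 14.1 and 8.63 CPM in CB-O3 libraries, against 20.1, 9.51, 14.6 and 17.8 in O3 libraries. It had 7.95, 30, 70.5 and 58.7 CPM in CB libraries, against 10.3, 7.97, 3.99 and 6.58 in sham libraries. CB replicates 2, 3 and 4 were above every other library, and CB replicate 1 lay within the sham range. Its interaction was -3.12 ± 0.78 (SE, adjusted p = 0.0363). Epb42 reached -3.81 ± 0.95 (SE, adjusted p = 0.029). No red cell gene passed when any of 8 libraries was left out (sham replicates 3 and 4, CB replicates 3 and 4, O3 replicates 1 and 3, and CB-O3 replicates 3 and 4), and 8 of 10 passed without CB replicate 1. With limma-voom the count was 0 of 10.

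Of 8 platelet genes, 4 had an interaction below 0 and none above (2.98% below among all genes tested). All 8 of 8 had a negative value, with a list median of -1.29. In CB against sham 4 of 8 rose (0.962% of all genes tested), with a median of 1.28, and in CB-O3 against CB 8 of 8 fell (15.5% of all genes tested). The first count was 1 without sham replicate 3, and the second was 5 without CB replicate 3 or CB-O3 replicate 4. Platelets are made by megakaryocytes, some of which reside in the lung. Tubb1, the platelet-specific beta tubulin, had 6.14, 8.59, 10.1 and 7.22 CPM in CB-O3 libraries, 9.39, 6.1, 7.17 and 7.53 in O3 libraries, 20.2, 13.9, 30.5 and 22 in CB libraries and 6.05, 9.89, 6.56 and 7.32 in sham libraries. Every CB library was above every other library, while the CB-O3, O3 and sham libraries overlapped. Its interaction was -1.45 ± 0.32 (SE, adjusted p = 0.019). Ppbp, a platelet chemokine precursor, averaged 12.2 ± 1.46 CPM in CB-O3, 10.5 ± 1.52 in O3, 44.6 ± 21.4 in CB and 15.5 ± 1.86 in sham libraries (SD, n = 4), with an interaction of -1.31 ± 0.35 (SE, adjusted p = 0.0377). Itga2b, the alpha chain of the fibrinogen receptor, averaged 13.6 ± 2.24 CPM in CB-O3, 12.2 ± 3.09 in O3, 26.6 ± 4.93 in CB and 12.8 ± 1.02 in sham libraries, with an interaction of -0.88 ± 0.24 (SE, adjusted p = 0.0373). Gp9, part of the receptor for von Willebrand factor, had -1.62 ± 0.44 (SE, adjusted p = 0.0388). The call of Tubb1 was kept in 15 of 16 (lost without sham 3, adjusted p 0.00536 to 0.0508), that of Ppbp in 7 of 16 (kept without sham 2, CB 1, CB 2, CB 3, CB 4, O3 4 or CB-O3 2, adjusted p 0.0215 to 0.0879), that of Gp9 in 7 of 16 (kept without sham 2, CB 2, CB 4, O3 2, O3 4, CB-O3 1 or CB-O3 2, adjusted p 0.0182 to 0.0871) and that of Itga2b in 6 of 16 (kept without sham 2, CB 1, CB 2, O3 4, CB-O3 2 or CB-O3 3, adjusted p 0.0268 to 0.0843). The list means were highest in CB libraries, except that CB replicate 1 lay within the other libraries for the red cell list. The mean log2(CPM + 0.5) of the platelet list was 3.16, 3.28, 3.84 and 3.21 in CB libraries, against 1.83 to 2.51 elsewhere. The red cell list had 6.57, 8.18, 8.34 and 8.02 in CB libraries, against 6.38 to 7.36 elsewhere. The part of blood left in the lungs in these differences was not tested.

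**Figure D2:**
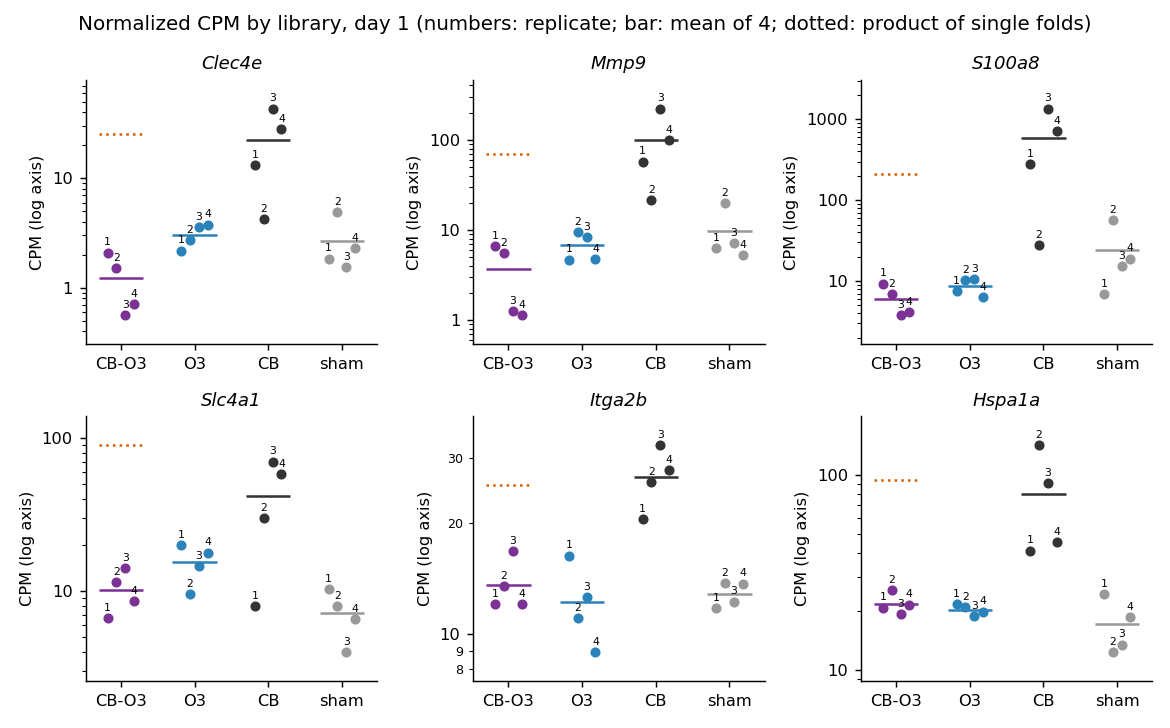
Normalized CPM (log axis) of Clec4e, Mmp9, S100a8, Slc4a1, Itga2b and Hspa1a in the 16 day 1 libraries, with groups from left to right CB-O3, O3, CB and sham; points are libraries with their replicate number, bars the mean of 4, and the dotted line the level given by multiplying the single folds. In each panel the CB-O3 libraries lie under the dotted line, as for Clec4e with 1.22 ± 0.716 CPM under 25.6 CPM.

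Monocyte genes leaned the same way. Of 10 tested, 2 had an interaction below 0 and none above (2.98% below among all genes tested). A negative value was found in 10 of 10, and in 7127 of all 14344 genes tested, and the list median was -0.89. F13a1, a coagulation transglutaminase of monocytes and platelets, had 15.7, 13.9, 11.2 and 11.5 CPM in CB-O3 libraries, against 18.6, 18.3, 19.6 and 17.7 in O3 libraries. It had 59.4, 45.4, 101 and 72.2 CPM in CB libraries, against 17.2, 41, 16.7 and 16.1 in sham libraries. The CB libraries were all above every other library, and sham replicate 2 stood far above its group. The interaction was -2.12 ± 0.43 (SE, adjusted p = 0.0169), kept in 16 of 16 (adjusted p at most 0.0463). Ly6c2, the surface marker of classical monocytes, averaged 9.64 ± 0.409 CPM in CB-O3, 12.6 ± 3.61 in O3, 26.9 ± 11.4 in CB and 13.6 ± 2 in sham libraries, with an interaction of -1.35 ± 0.38 (SE, adjusted p = 0.0474), kept in 4 of 16 (kept without sham 2, CB 2, O3 2 or CB-O3 2, adjusted p 0.00612 to 0.105).

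Resident alveolar macrophages clear particles and surfactant, and their gene Mrc1 shared the smallest adjusted p of the interaction with Gpnmb of phagocytes. Of 12 tested identity genes, 6 had an interaction below 0 and none above (2.98% below among all genes tested), with a list median of -0.73. In CB-O3 against O3 3 of 12 fell (0.39% of all genes tested), Siglecf, Ear2 and Mrc1, with a list median of -0.47. In CB against sham 2 of 12 rose (0.962% of all genes tested), Abcg1 and Mrc1, with a median of 0.30. Without O3 replicates 2 or 3 or CB-O3 replicates 3 or 4, or with all 28 libraries in the fit, 0 of 12 fell. Without sham replicate 3, 0 of 12 rose. The list's mean log2(CPM + 0.5) was 4.58 to 5.03 in CB-O3 and 5.14 to 5.45 in O3 libraries, which did not overlap, and 5.46 to 5.86 in CB and 5.17 to 5.50 in sham libraries. The count was 4 without CB-O3 replicate 3 and otherwise 5 to 7.

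Mrc1, the mannose receptor (ENSMUSG00000026712, chr2:14229392-14332057, plus strand), had 62.6, 76.8, 53.9 and 50 CPM in CB-O3 libraries, against 91, 109.6, 106 and 112 in O3 libraries. It had 97.9, 114, 95.9 and 104 CPM in CB libraries, against 76.5, 67.5, 75.7 and 65.5 in sham libraries. CB-O3 libraries lay below all O3 libraries, and CB libraries above all sham libraries. The interaction was -1.31 ± 0.16 (SE, adjusted p = 0.000912), a CB-O3 level 0.403 times the product of the single folds (95% interval 0.321 to 0.505). Both single exposures raised Mrc1, O3 against sham by 0.55 ± 0.11 (SE, adjusted p = 0.00287) and CB against sham by 0.53 ± 0.11 (SE, adjusted p = 0.0326), while CB-O3 against O3 fell by 0.78 on the log2 scale (adjusted p = 0.0119). The call in CB against sham was lost without sham replicates 1, 3 or 4 or CB replicates 3 or 4 (adjusted p up to 0.111). Abcg1, which exports cholesterol to lipoproteins, had 60.6, 56.7, 47.4 and 48 CPM in CB-O3 libraries, against 65.4, 77.3, 72.1 and 61.6 in O3 libraries. It had 141, 147, 140.2 and 159 CPM in CB libraries, against 112, 95, 92.4 and 93.4 in sham libraries. Here the single exposures went opposite ways, with -0.51 ± 0.09 (SE, adjusted p = 0.00171) in O3 against sham and 0.58 ± 0.09 (SE, adjusted p = 0.00831) in CB against sham (lost without sham replicate 3, adjusted p = 0.0616), and the interaction was -0.96 ± 0.13 (SE, adjusted p = 0.00387). Siglecf, a sialic acid receptor used to mark these cells, averaged 6.61 ± 1.84 CPM in CB-O3, 12.2 ± 3.09 in O3, 15.4 ± 1.09 in CB and 12.3 ± 1.59 in sham libraries and had an interaction of -1.21 ± 0.26 (SE, adjusted p = 0.0169).

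Chil3, the chitinase-like protein Ym1, had 653, 608, 379 and 308 CPM in CB-O3 libraries, against 627, 826, 719.6 and 773 in O3 libraries. It had 1042, 769.5, 1309 and 1090 CPM in CB libraries, against 616, 487, 639 and 669 in sham libraries. CB-O3 replicates 3 and 4 lay below every other library, and the interaction was -1.40 ± 0.30 (SE, adjusted p = 0.0204). Itgax, the integrin CD11c, had an interaction of -0.93 ± 0.18 (SE, adjusted p = 0.0123), and Plet1, a surface glycoprotein, of -0.54 ± 0.13 (SE, adjusted p = 0.026). The interactions of Mrc1, Abcg1, Siglecf and Itgax passed in 16 of 16 fits that left out 1 library. The call of Chil3 was kept in 15 of 16 (lost without CB-O3 3, adjusted p 0.00934 to 0.0507) and that of Plet1 in 11 of 16 (lost without sham 4, CB 1, O3 2, CB-O3 3 or CB-O3 4, adjusted p 0.0185 to 0.0576).

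Genes of phagocytosis and the lysosome split. Of 12 tested, 4 had an interaction below 0, Gpnmb, Atp6v0d2, Cd68 and Ctsd, and 1 above, Cd63, with a list median of -0.26. Among all genes tested 2.98% were below and 3.28% above. Gpnmb, a glycoprotein of lysosome-rich phagocytes (ENSMUSG00000029816, chr6:49036546-49070929, plus strand), had 16.3, 16.9, 15.1 and 12.9 CPM in CB-O3 libraries, against 21.3, 19.8, 19.7 and 26.3 in O3 libraries. It had 36, 32.2, 38.9 and 31.5 CPM in CB libraries, against 19.9, 20.2, 17.2 and 16.2 in sham libraries. CB libraries were above all others and CB-O3 libraries below all O3 libraries, and the interaction was -1.43 ± 0.17 (SE, adjusted p = 0.000912). Atp6v0d2, a subunit of the macrophage proton pump that acidifies lysosomes, had 44.5, 48.2, 35.6 and 31.1 CPM in CB-O3 libraries, against 54.8, 61.3, 56 and 68 in O3 libraries. It had 64.5, 60.3, 64.3 and 76 CPM in CB libraries, against 43.7, 38.2, 42.9 and 44 in sham libraries. The CB-O3 libraries did not reach any O3 library, and the interaction was -1.24 ± 0.16 (SE, adjusted p = 0.00294). Cd68, a lysosomal membrane marker of macrophages, averaged 32.1 ± 4.79 CPM in CB-O3, 41.9 ± 3.46 in O3, 46.2 ± 4.33 in CB and 28.6 ± 5.68 in sham libraries and had an interaction of -1.08 ± 0.19 (SE, adjusted p = 0.0101). Ctsd, the lysosomal protease cathepsin D, averaged 466 ± 75.4 CPM in CB-O3, 586 ± 28.7 in O3, 705 ± 30.8 in CB and 548 ± 46 in sham libraries and had an interaction of -0.69 ± 0.14 (SE, adjusted p = 0.013). These 4 genes passed in each of the 16 fits that left out 1 library.

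Cd63, a tetraspanin of late endosomes found in many cell types, went the other way, with 256 ± 38 CPM in CB-O3, 191 ± 17.8 in O3, 128 ± 11.2 in CB and 138 ± 10.8 in sham libraries (SD, n = 4) and an interaction of 0.53 ± 0.14 (SE, adjusted p = 0.0362), kept in 6 of 16 (kept without sham 1, sham 2, CB 2, O3 4, CB-O3 1 or CB-O3 2, adjusted p 0.0148 to 0.0857). Of 10 tested CC chemokines, 2 had a called interaction below 0 and none above (2.98% below among all genes tested). The list as a whole did not go below 0: its median was 0.26, with a positive value in 6 of 10. Ccl6, made by macrophages, had 133, 140.1, 109.7 and 81.2 CPM in CB-O3 libraries, against 159.7, 194, 184 and 185 in O3 libraries. It had 261, 279, 307 and 299 CPM in CB libraries, against 199.6, 183, 164 and 132 in sham libraries. All CB libraries exceeded all others, and the interaction was -1.40 ± 0.20 (SE, adjusted p = 0.00694), kept in 16 of 16 (adjusted p at most 0.0262). Its neighbour Ccl9 averaged 10.4 ± 2.03 CPM in CB-O3, 14.3 ± 4.06 in O3, 32 ± 6.71 in CB and 16.2 ± 5.21 in sham libraries, with an interaction of -1.46 ± 0.34 (SE, adjusted p = 0.0228), kept in 13 of 16 (lost without sham 3, CB-O3 3 or CB-O3 4, adjusted p 0.00869 to 0.0599).

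**Figure D3:**
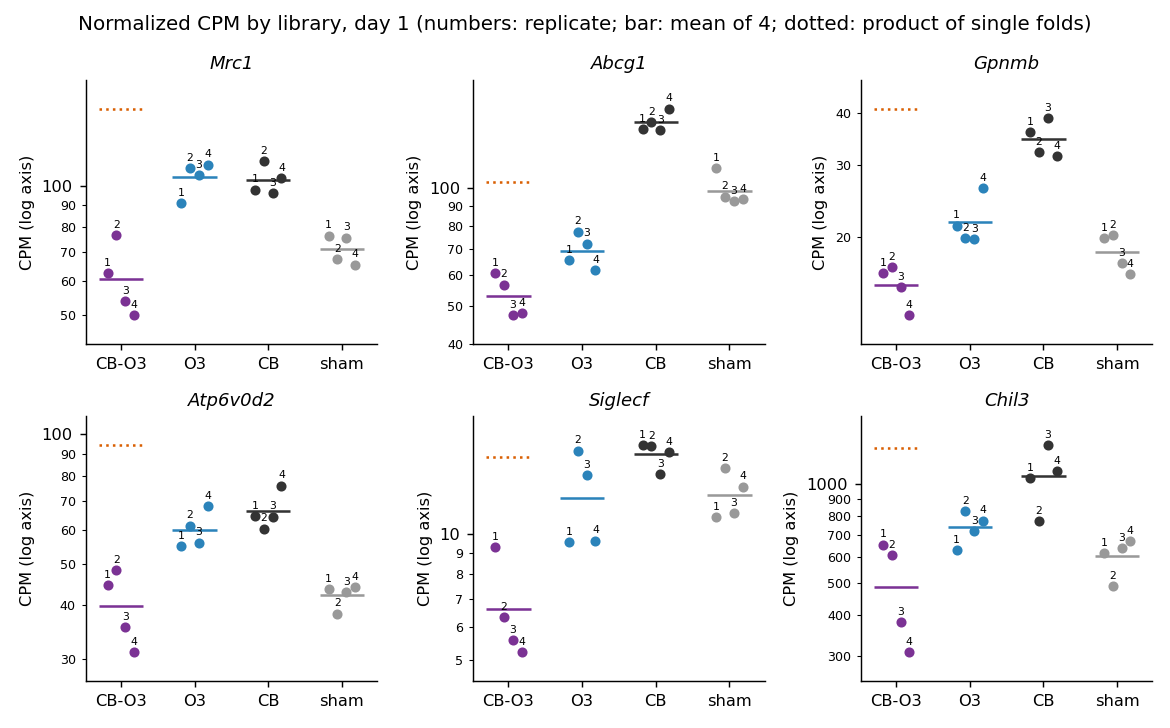
Normalized CPM (log axis) of Mrc1, Abcg1, Gpnmb, Atp6v0d2, Siglecf and Chil3 in the 16 day 1 libraries, groups from left to right CB-O3, O3, CB and sham; points are libraries with their replicate number, bars the mean of 4, and the dotted line the product of the single folds. The CB-O3 libraries lie under the dotted line in all 6 panels, as for Mrc1 with 60.8 ± 11.9 CPM under 151 CPM.

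Heat shock chaperones refold proteins damaged by heat, oxidants or other stress, and their genes are switched on by HSF1, which binds repeats of the unit NGAAN. Of 19 tested chaperone genes, 7 rose in CB against sham (Hspa1a, Hspa1b, Hspa8, Dnajb1, Dnaja1, Chordc1 and Stip1; 0.962% of all genes tested), and none was called in CB-O3 against O3. The count of 7 was 1 without sham replicate 3, 4 without sham replicate 4 and 4 with the replicate block. The list median was 0.15 in CB-O3 against O3 and 0.30 in CB against sham. The interaction was below 0 for 3 genes, Hspa1a, Hspa1b and Chordc1 (2.98% of all genes tested), and above 0 for Cryab (3.28%). In the fit of all 28 libraries none of the 4 was called. The starts of the 3 genes are shown because they hold the 8-base form of the heat shock element, GAANNTTC or TTCNNGAA, printed in capitals. The bases before the start of Hspa1a (chr17:34972157-34972406, minus strand) and Hspa1b (chr17:34959239-34959488, minus strand), and 30 bases around the start of Chordc1 (chr9:18292260-18292289, plus strand), are from RefSeq on GRCm38.p6.
Hspa1a: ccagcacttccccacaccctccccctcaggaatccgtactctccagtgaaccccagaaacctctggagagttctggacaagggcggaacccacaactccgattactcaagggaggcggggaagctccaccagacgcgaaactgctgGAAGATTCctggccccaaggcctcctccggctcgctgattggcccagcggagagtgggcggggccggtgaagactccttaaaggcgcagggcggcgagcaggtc
Hspa1b: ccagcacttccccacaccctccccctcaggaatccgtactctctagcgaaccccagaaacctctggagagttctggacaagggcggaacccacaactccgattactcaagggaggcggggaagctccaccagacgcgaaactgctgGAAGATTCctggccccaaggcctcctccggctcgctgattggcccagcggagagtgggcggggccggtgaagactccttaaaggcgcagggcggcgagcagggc
Chordc1: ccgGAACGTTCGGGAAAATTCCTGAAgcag
The Hspa1a and Hspa1b stretches are identical at 247 of 250 positions, each with 1 element that begins 104 bases before the start, and the Chordc1 stretch holds 4 overlapping elements. Each form of the motif is its own reverse complement, so both strands are covered. Of 32851 windows of 300 bases around gene starts, 15.1% hold the element. Of the 15 chaperone genes with a window 11 do, 4 of the 6 that rose in CB against sham and 7 of the 9 that did not; a match is a description of these letters only.

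Hspa1a and Hspa1b encode the inducible Hsp70, and their transcripts are so alike that the counting could split reads between them. Hspa1a had 20.9, 25.6, 19.4 and 21.6 CPM in CB-O3 libraries, against 21.8, 21, 18.9 and 19.9 in O3 libraries. It had 41, 141, 90.5 and 45.4 CPM in CB libraries, against 24.6, 12.4, 13.5 and 18.7 in sham libraries. All CB libraries were above all others, with CB replicate 2 the highest, and the CB-O3, O3 and sham libraries overlapped. The interaction was -2.09 ± 0.50 (SE, adjusted p = 0.0313). Hspa1b averaged 34.5 ± 5.24 CPM in CB-O3, 26 ± 4.44 in O3, 119 ± 70.3 in CB and 24.2 ± 7.43 in sham libraries (SD, n = 4), and its interaction was -1.88 ± 0.51 (SE, adjusted p = 0.0457). Chordc1, an Hsp90 partner protein, averaged 78.3 ± 5.79 CPM in CB-O3, 72.6 ± 6.52 in O3, 97.3 ± 17.4 in CB and 60.7 ± 6.43 in sham libraries and had an interaction of -0.57 ± 0.16 (SE, adjusted p = 0.0388). Cryab, the small chaperone alpha-B crystallin, averaged 199.9 ± 18.5 CPM in CB-O3, 168 ± 18 in O3, 176 ± 9.03 in CB and 196 ± 6.47 in sham libraries and had 0.41 ± 0.11 (SE, adjusted p = 0.0394). The call of Hspa1a was kept in 8 of 16 (lost without sham 3, sham 4, CB 3, O3 1, O3 2, O3 4, CB-O3 3 or CB-O3 4, adjusted p 0.0171 to 0.0741), that of Hspa1b in 6 of 16 (kept without sham 1, CB 1, CB 2, CB 4, CB-O3 1 or CB-O3 2, adjusted p 0.0254 to 0.1), that of Chordc1 in 6 of 16 (kept without sham 4, CB 1, CB 2, CB 4, O3 3 or CB-O3 2, adjusted p 0.0203 to 0.0918) and that of Cryab in 5 of 16 (kept without sham 2, CB 2, O3 3, CB-O3 1 or CB-O3 2, adjusted p 0.0113 to 0.0858).

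Antioxidant genes driven by NRF2, the oxidant-sensing transcription factor, mostly rose with ozone. In O3 against sham 14 of 24 rose (8.6% higher among all genes tested), and in CB-O3 against sham 18 of 24 (12.5%). The interaction was below 0 for 2 of 24 (2.98% of all genes tested). G6pdx, which makes NADPH in the pentose phosphate pathway, had 62.8, 63.8, 59.8 and 49.4 CPM in CB-O3 libraries, against 66.4, 64.2, 69.6 and 72.5 in O3 libraries. It had 54.2, 61.4, 74.9 and 65.8 CPM in CB libraries, against 42.6, 46.5, 40.9 and 38.8 in sham libraries. All CB-O3 libraries lay below all O3 libraries, and the CB libraries overlapped with both groups. Every exposed library lay above every sham library. Either exposure alone raised it, by 0.69 ± 0.10 (SE, adjusted p = 0.000256) in O3 against sham and 0.60 ± 0.10 (SE, adjusted p = 0.00952) in CB against sham (lost without sham replicates 3 or 4, adjusted p up to 0.0621), and the interaction was -0.81 ± 0.14 (SE, adjusted p = 0.0101), kept in 16 of 16 (adjusted p at most 0.0305). Slc7a11, the cystine importer for glutathione synthesis, averaged 6.31 ± 2.67 CPM in CB-O3, 8.31 ± 1.76 in O3, 5.22 ± 1.27 in CB and 2.65 ± 0.703 in sham libraries, with an interaction of -1.36 ± 0.39 (SE, adjusted p = 0.0462), kept in 4 of 16 (kept without sham 1, CB 2, O3 3 or CB-O3 2, adjusted p 0.00726 to 0.102). Hmox1, heme oxygenase 1, rose in CB against sham by 0.45 ± 0.09 (SE, adjusted p = 0.023), a call lost without sham replicates 1, 3 or 4 or CB replicate 4 (adjusted p up to 0.0873), and its interaction of -0.33 ± 0.12 (SE, adjusted p = 0.105) missed the threshold. Gclc, the rate-limiting enzyme of glutathione synthesis, averaged 476 ± 67.8 CPM in CB-O3, 451 ± 12.7 in O3, 204 ± 8.67 in CB and 212 ± 17.8 in sham libraries (SD, n = 4). Its interaction of 0.14 ± 0.12 (SE, adjusted p = 0.514) had a 95% interval of -0.12 to 0.40.

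Enzymes of lipid mediators and of clotting were also among the genes below 0 (2.98% of all genes tested). Alox5, the first enzyme of leukotriene synthesis, had 13.8, 8.74, 7.54 and 7.36 CPM in CB-O3 libraries, against 12.6, 18, 19.4 and 16.7 in O3 libraries. It had 16.3, 17.5, 29 and 23.1 CPM in CB libraries, against 11.6, 13.3, 11.2 and 9.27 in sham libraries. CB-O3 replicates 2, 3 and 4 lay below every other library, and the interaction was -1.75 ± 0.30 (SE, adjusted p = 0.0101), kept in 16 of 16 (adjusted p at most 0.0305). Tbxas1, thromboxane synthase, had -1.01 ± 0.29 (SE, adjusted p = 0.0481), the second of 11 eicosanoid genes called. Of 10 coagulation genes 3 were below 0: F5, clotting factor V, at -0.95 ± 0.27 (SE, adjusted p = 0.0482), F7, factor VII, at -0.64 ± 0.18 (SE, adjusted p = 0.0457) and F10, factor X, at -1.41 ± 0.39 (SE, adjusted p = 0.0435). F5 rose in CB against sham, by 0.94 ± 0.19 (SE, adjusted p = 0.0274), a call lost without sham replicates 1, 3 or 4 or CB replicates 3 or 4 (adjusted p up to 0.122), and the particle difference of F7 and F10 was not called with or without ozone. The call of Tbxas1 was kept in 4 of 16 (kept without sham 2, CB 1, CB-O3 1 or CB-O3 2, adjusted p 0.0286 to 0.107), that of F5 in 4 of 16 (kept without sham 2, CB 2, O3 3 or CB-O3 2, adjusted p 0.0226 to 0.104), that of F7 in 6 of 16 (kept without sham 1, CB 3, O3 1, CB-O3 1, CB-O3 2 or CB-O3 4, adjusted p 0.0404 to 0.104) and that of F10 in 3 of 16 (kept without CB 2, CB-O3 1 or CB-O3 2, adjusted p 0.00459 to 0.0972).

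Single members of other lists lay below 0. Tiparp, an ADP-ribosyltransferase induced by the aryl hydrocarbon receptor, averaged 52.3 ± 2.67 CPM in CB-O3, 66.7 ± 6.15 in O3, 67.3 ± 6.52 in CB and 54 ± 4.4 in sham libraries (SD, n = 4), with -0.66 ± 0.12 (SE, adjusted p = 0.0102), kept in 16 of 16 (adjusted p at most 0.031). Fkbp5, a glucocorticoid-induced immunophilin, averaged 66.2 ± 9.32 CPM in CB-O3, 102 ± 30.1 in O3, 75.9 ± 36 in CB and 34 ± 11.8 in sham libraries, with -1.76 ± 0.48 (SE, adjusted p = 0.0457), kept in 4 of 16 (kept without sham 4, CB 1, CB 2 or CB-O3 2, adjusted p 0.0204 to 0.104). Trp53inp1, a p53 target that promotes autophagy, had -0.81 ± 0.19 (SE, adjusted p = 0.0251), kept in 12 of 16 (lost without sham 3, CB 4, CB-O3 3 or CB-O3 4, adjusted p 0.00427 to 0.0635). Il1rn, the interleukin 1 receptor antagonist, had -0.97 ± 0.26 (SE, adjusted p = 0.036), and Cftr, the epithelial chloride channel, -0.91 ± 0.25 (SE, adjusted p = 0.0412). Col4a3, a basement membrane collagen chain of alveolar type 1 cells, had -0.51 ± 0.13 (SE, adjusted p = 0.032). The last 3 passed in 4 of 16, 5 of 16 and 7 of 16 fits that left out 1 library.

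Genes above 0 moved less and came from other groups. Pcdhgc4, a clustered protocadherin that shares its last exons with other members of its cluster, had 25.7, 50.4, 94.2 and 100.5 CPM in CB-O3 libraries, against 32.2, 23.7, 32.1 and 16.4 in O3 libraries. It had 28.8, 40.6, 29.3 and 40.5 CPM in CB libraries, against 75.6, 52.7, 103 and 76.6 in sham libraries. CB-O3 libraries ranged from the O3 level to the sham level, with replicates 3 and 4 the highest. The interaction was 2.53 ± 0.53 (SE, adjusted p = 0.0208), kept in 14 of 16 (lost without sham 3 or CB-O3 3, adjusted p 0.00811 to 0.051). Plac9a, a small secreted protein of lung mesenchyme, had 22.2, 25.3, 20.8 and 22.9 CPM in CB-O3 libraries, against 11.7, 8.33, 12 and 12.8 in O3 libraries. It had 10.2, 14.2, 15.6 and 12.5 CPM in CB libraries, against 15.9, 15.2, 20.2 and 17.4 in sham libraries. CB-O3 libraries were above all O3 and all CB libraries, and the interaction was 1.43 ± 0.21 (SE, adjusted p = 0.00475). Its near-identical copy Plac9b averaged 65.5 ± 6.63 CPM in CB-O3, 44.9 ± 1.59 in O3, 51.6 ± 6.28 in CB and 70.2 ± 9.11 in sham libraries, with 0.99 ± 0.14 (SE, adjusted p = 0.00475), and reads could be split between the 2 copies. Both passed in each of the 16 fits that left out 1 library.

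Cldn4, a tight junction claudin raised in injured alveolar epithelium, had 21.9, 19.1, 25.4 and 19.5 CPM in CB-O3 libraries, against 20.4, 15.8, 15 and 17.3 in O3 libraries. It had 3.97, 3.22, 5.1 and 3.69 CPM in CB libraries, against 6.05, 5.76, 9.01 and 9.15 in sham libraries. It fell with the particle alone, by 0.91 on the log2 scale (adjusted p = 0.033; lost without sham replicates 1, 3 or 4 or CB replicates 1 or 4), and all CB libraries lay below all sham libraries, while CB-O3 and O3 libraries overlapped. Ozone raised it, by 2.43 ± 0.18 (SE, adjusted p = 2.36e-07) in CB-O3 against CB and 1.18 ± 0.17 (SE, adjusted p = 0.000267) in O3 against sham, and the interaction was 1.24 ± 0.25 (SE, adjusted p = 0.0135), kept in 16 of 16 (adjusted p at most 0.0408). Of the 14 tested genes of injured epithelium it was the only one called, while 13 of the 14 rose in O3 against sham (8.6% of all genes tested). Igha, the constant region of immunoglobulin A, had 13.2, 22.6, 11 and 7.08 CPM in CB-O3 libraries, against 2.01, 1.06, 2.76 and 3.48 in O3 libraries. It had 8.45, 11.6, 2.92 and 3.83 CPM in CB libraries, against 7.63, 6.64, 5.79 and 3.29 in sham libraries. CB-O3 libraries were above all O3 libraries, and the interaction was 2.32 ± 0.66 (SE, adjusted p = 0.0498), kept in 1 of 16 (kept without CB 2, adjusted p 0.021 to 0.0983). Dctpp1, which breaks down deoxycytidine triphosphate, averaged 10.4 ± 0.808 CPM in CB-O3, 6.73 ± 0.716 in O3, 3.58 ± 0.889 in CB and 4.85 ± 0.612 in sham libraries (SD, n = 4), with 1.06 ± 0.24 (SE, adjusted p = 0.0208), kept in 16 of 16 (adjusted p at most 0.0484).

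Tbx18, a transcription factor of mesenchyme and pericytes, averaged 3.01 ± 0.662 CPM in CB-O3, 1.02 ± 0.421 in O3, 1.81 ± 0.895 in CB and 2.53 ± 1.2 in sham libraries, with 2.00 ± 0.55 (SE, adjusted p = 0.0388). Sox11, a transcription factor of developing and injured tissue, averaged 35.4 ± 11.6 CPM in CB-O3, 23.5 ± 4.54 in O3, 27.3 ± 5.64 in CB and 41 ± 5.79 in sham libraries, with 1.18 ± 0.30 (SE, adjusted p = 0.0351). Smim11, a small membrane protein, had 0.99 ± 0.18 (SE, adjusted p = 0.0113), Gstp2, a glutathione transferase with a near-identical copy, 1.22 ± 0.35 (SE, adjusted p = 0.047), Rpusd3, a mitochondrial pseudouridine synthase, 1.06 ± 0.31 (SE, adjusted p = 0.0491), and Fbxl15, a subunit of a ubiquitin ligase, 1.06 ± 0.29 (SE, adjusted p = 0.04). Of these, Smim11 passed in 16 of 16 fits that left out 1 library, and the other 5 in 4 of 16 (Tbx18), 5 of 16 (Sox11), 5 of 16 (Gstp2), 3 of 16 (Rpusd3) and 4 of 16 (Fbxl15).

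Among lists, 2 of 20 immediate early genes lay above 0 in the full fit (3.28% of all genes tested) and in each of the 16 fits that left out 1 library. Jund, the AP-1 subunit that restrains growth, had 242, 186, 212 and 237 CPM in CB-O3 libraries, against 168, 163, 185 and 166 in O3 libraries. It had 173, 201, 182 and 197 CPM in CB libraries, against 227, 232, 251 and 206 in sham libraries. CB-O3 libraries were above all O3 libraries, and CB libraries below all sham libraries. The interaction was 0.65 ± 0.12 (SE, adjusted p = 0.0113). Ier3, an immediate early gene of cell survival, averaged 142 ± 23.7 CPM in CB-O3, 107 ± 11.3 in O3, 86.5 ± 6.57 in CB and 107 ± 7.84 in sham libraries, with 0.72 ± 0.15 (SE, adjusted p = 0.0152). Sftpc lay above 0 at 0.57 ± 0.14 (SE, adjusted p = 0.0293), with 15000, 13530, 16930 and 18750 CPM in CB-O3 libraries, against 11810, 12470, 13510 and 12850 in O3 libraries. It had 15020, 14370, 12580 and 14730 CPM in CB libraries, against 16320, 15250, 17440 and 17320 in sham libraries. H2-DMb1, which loads peptide onto MHC class II, had 0.66 ± 0.19 (SE, adjusted p = 0.0457). It fell in CB against sham by 0.57 on the log2 scale (adjusted p = 0.045, kept in 4 of 16 fits that left out 1 library) and was not called in CB-O3 against O3. Des, the muscle filament desmin, had 0.77 ± 0.22 (SE, adjusted p = 0.0488). Its call was lost without sham replicate 2 and O3 replicate 2 together, the libraries high in skeletal muscle genes. A positive value was found in 10 of 10 smooth, 11 of 11 cardiac and 5 of 5 tested skeletal muscle genes. Of all 14344 genes tested, 7217 had a positive value. The part of muscle tissue in the value of Des was not tested. The stress transcription factor Atf4 had 0.46 ± 0.13 (SE, adjusted p = 0.0462), the p53 target Bax 0.46 ± 0.12 (SE, adjusted p = 0.0373) and the claudin Cldn7 0.50 ± 0.14 (SE, adjusted p = 0.0462). The last 6 passed in 8 of 16 (Sftpc), 4 of 16 (H2-DMb1), 5 of 16 (Des), 4 of 16 (Atf4), 7 of 16 (Bax) and 2 of 16 (Cldn7) fits that left out 1 library.

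Ribosomal protein genes made up the largest group above 0. They encode the protein part of the cytosolic ribosome, are short and highly expressed, and were made a list after their values were seen. Of 80 tested, 57 had an interaction above 0 and none below (3.28% above among all genes tested), with a median of 0.46. In CB-O3 against O3 47 of 80 rose (1.42% of all genes tested), with a median of 0.33, and in CB against sham none was called, with a median of -0.13. Rplp2, a stalk protein of the large subunit, had 363, 351, 405 and 447 CPM in CB-O3 libraries, against 275, 274, 283 and 298 in O3 libraries. It had 269.7, 297, 267 and 279 CPM in CB libraries, against 297, 321, 376 and 298 in sham libraries. CB-O3 libraries were above all O3 and all CB libraries, highest in replicates 3 and 4, and overlapped with sham libraries. The interaction was 0.69 ± 0.12 (SE, adjusted p = 0.0101). Rps20 had 0.71 ± 0.13 (SE, adjusted p = 0.0113) and Rpl37a 0.64 ± 0.11 (SE, adjusted p = 0.0101), and all 3 passed in each fit that left out 1 library. The 47 of 80 were 0 of 80 without O3 replicates 1, 2 or 3 or CB-O3 replicates 3 or 4, with all 28 libraries in the fit, and with the length and GC trend removed. In the fit of all 28 libraries the interaction was above 0 for 0 of 80 after adjustment. The list count was 28 without sham replicate 3 or CB-O3 replicate 3 and 66 without CB-O3 replicate 2.

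Nuclear genes of the respiratory chain, which are also short, leaned the same way: 4 of 12 lay above 0 (3.28% of all genes tested), none below, with a median of 0.38. Cox7a2 had 76.8, 76.3, 83.6 and 90 CPM in CB-O3 libraries, against 57.5, 62.9, 65.7 and 65.8 in O3 libraries. It had 59.3, 61, 61.5 and 61.4 CPM in CB libraries, against 60.9, 73.7, 61.8 and 66.2 in sham libraries. CB-O3 libraries were above all others, and the interaction was 0.48 ± 0.10 (SE, adjusted p = 0.0169). Ndufb8 had 0.50 ± 0.12 (SE, adjusted p = 0.0246), Cox4i1 0.45 ± 0.11 (SE, adjusted p = 0.0297) and Cox5b 0.49 ± 0.14 (SE, adjusted p = 0.0431). Without sham replicate 3, CB replicate 1, CB-O3 replicate 3 or CB-O3 replicate 4 the count was 1 of 12, without CB replicate 2 it was 6, and in the fit of all 28 libraries 0.

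Transcript length and GC content moved with the interaction over all genes. In 5 equal bins of annotated transcript length the median interaction was 0.10 in the shortest (105 to 761 bases), 0.10, 0.05 and -0.05 in the next, and -0.14 in the longest (2808 to 123200 bases). The shortest bin held 234 genes above 0 and 68 below, and the longest 16 above and 128 below. In 5 bins of GC content the median interaction was -0.10 in the lowest (31.9 to 45.1%), with 38 genes above 0 and 129 below, and 0.13 in the highest (56.1 to 72.8%), with 144 above and 38 below. Across the length bins the medians of the particle differences ran from 0.08 to -0.12 in CB-O3 against O3 and from -0.04 to 0.02 in CB against sham. The ribosomal protein genes had a median length of 630.2 bases, genes above 0 of 763, genes below 0 of 1950 and all genes of 1478. With the trend over length and GC content removed from each library, 220 genes lay above 0 and 364 below, and the median of the ribosomal protein list was 0.30. The ribosomal list's mean log2(CPM + 0.5) was 8.05, 8.04, 8.25 and 8.28 in CB-O3 and 7.82 to 7.90 in O3 libraries, and 7.72 to 7.79 in CB and 7.77 to 7.97 in sham libraries. The part of RNA quality or library preparation in the values above 0 was not tested.

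**Figure D4:**
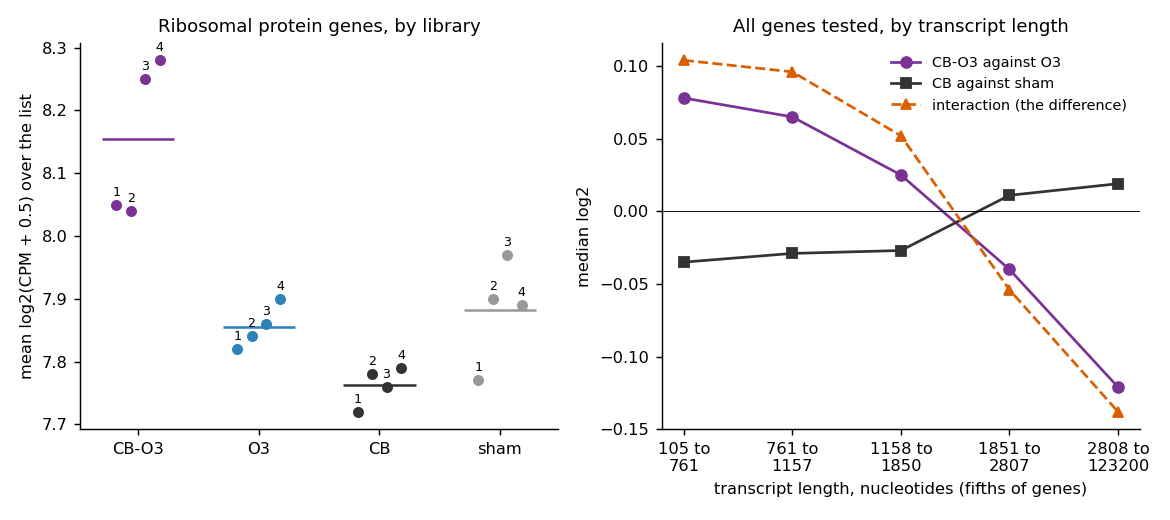
Left, mean log2(CPM + 0.5) of the 80 ribosomal protein genes in each day 1 library, groups from left to right CB-O3, O3, CB and sham, with bars at the mean of 4; CB-O3 replicates 3 and 4 are the highest at 8.25 and 8.28. Right, medians over all genes tested in 5 bins of transcript length (x axis, nucleotides) of the log2 fold of CB-O3 against O3 (circles) and of CB against sham (squares), and of the log2 interaction (triangles), which is 0.10 in the shortest bin and -0.14 in the longest.

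Most genes that ozone changed had no called interaction: of 2163 genes called in O3 against sham, 176 (8.14%) had one, beside 6.26% of all genes tested. A call that is missing does not show that the exposures multiply, so intervals are given. Nqo1, a quinone reductase, averaged 25.5 ± 3.86 CPM in CB-O3, 24 ± 3.47 in O3, 6.54 ± 0.87 in CB and 6.96 ± 0.438 in sham libraries (SD, n = 4), and its interaction had a 95% interval of -0.24 to 0.59. Krt8, a keratin of injured epithelium, averaged 538 ± 46 CPM in CB-O3, 439.9 ± 53.8 in O3, 214 ± 22.2 in CB and 230.4 ± 32.1 in sham libraries, with 0.40 ± 0.15 (SE, adjusted p = 0.108) and an interval of 0.08 to 0.72. Timp1, an inhibitor of matrix proteases, averaged 52 ± 15.9 CPM in CB-O3, 36.1 ± 11.6 in O3, 4.83 ± 0.587 in CB and 4.68 ± 0.8 in sham libraries, with an interval of -0.33 to 1.33. Lcn2, an iron-binding acute-phase protein, averaged 547 ± 66.6 CPM in CB-O3, 512 ± 109.9 in O3, 175 ± 85.3 in CB and 125 ± 10.1 in sham libraries, with an interval of -1.16 to 0.39. Retnla, a resistin-like protein of type 2 immunity, averaged 496 ± 91.1 CPM in CB-O3, 371 ± 99.8 in O3, 95.5 ± 20.5 in CB and 49.8 ± 12.5 in sham libraries, with an interval of -1.19 to 0.15. The last 3 intervals span more than 1 log2 unit.

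Near-silent genes that ozone switched on gave wider intervals still. Ereg, an EGF receptor ligand, had 4.96, 8.59, 7.13 and 4.25 CPM in CB-O3 libraries, against 10.7, 4.46, 4.68 and 12 in O3 libraries. It had 0.611, 0.14, 0.291 and 0.425 CPM in CB libraries, against 0.132, 0.591, 0.515 and 0.122 in sham libraries. The interval of its interaction was -2.26 to 1.16. Fosl1, an AP-1 subunit, had 3.13, 6.48, 5.87 and 3.82 CPM in CB-O3 libraries, against 7.71, 4.58, 1.38 and 4.04 in O3 libraries, and in CB and sham libraries it lay near or under 3 counts, and the interval was -2.86 to 2.08. Of 18 genes of DNA replication, 17 rose in O3 against sham (8.6% of all genes tested), 17 rose in CB-O3 against CB (16.5%) and none had a called interaction. Mcm5, a replication helicase subunit, averaged 29.5 ± 5.51 CPM in CB-O3, 30.4 ± 9.18 in O3, 12.6 ± 3.56 in CB and 8.55 ± 2.44 in sham libraries, with an interval of -1.37 to 0.14. For Mki67, the proliferation marker, the means were 41.8 ± 9.64 CPM in CB-O3, 38.1 ± 18.5 in O3, 26.1 ± 10.1 in CB and 16.7 ± 2.19 in sham libraries and the interval was -1.49 to 0.46.

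Genes that fell with ozone likewise had no call in most lists. Of 17 T and NK cell genes, 16 fell in CB-O3 against CB (15.5% of all genes tested) and 11 in O3 against sham (6.48%), and none had a called interaction (list median -0.36). Without sham replicate 2 and O3 replicate 2 together, 4 fell in O3 against sham. Cd3g, a chain of the T cell receptor complex, averaged 2.46 ± 0.916 CPM in CB-O3, 1.95 ± 0.647 in O3, 4.65 ± 1.23 in CB and 5.46 ± 1.8 in sham libraries, with an interval of -0.37 to 1.50. Of 10 MHC class II genes 8 fell in O3 against sham (6.48% of all genes tested). The interaction was above 0 for 1 (3.28%), with a list median of 0.55. H2-Aa, a class II alpha chain, averaged 198 ± 31.5 CPM in CB-O3, 189.7 ± 21.2 in O3, 274 ± 61.5 in CB and 385 ± 69.4 in sham libraries, with 0.55 ± 0.23 (SE, adjusted p = 0.147) and an interval of 0.06 to 1.04. Of 21 interferon response genes 14 fell in O3 against sham (6.48% of all genes tested), or 9 without O3 replicate 4. None had a called interaction (list median -0.08). Cyp1a1, the main target of the aryl hydrocarbon receptor, averaged 4.34 ± 1.29 CPM in CB-O3, 5.96 ± 2.13 in O3, 16 ± 2.67 in CB and 27.2 ± 9.36 in sham libraries, with an interval of -0.49 to 1.15. No gene of the club cell, mucous cell, ciliated cell, fibroblast, endothelial, clock or cholesterol synthesis lists had a called interaction. The secretoglobin Scgb1a1 of club cells had an interval of -0.10 to 1.01, Pecam1 of -0.30 to 0.27, the clock gene Per2 of -1.31 to 0.02 and the smooth muscle actin Acta2 of 0.00 to 1.14. The chemokine Ccl17 had an interval of -0.49 to 0.93, the chemokine Cxcl5 of -1.39 to 2.81 and the metallothionein Mt2 of -0.62 to 1.36.

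**Figure D5:**
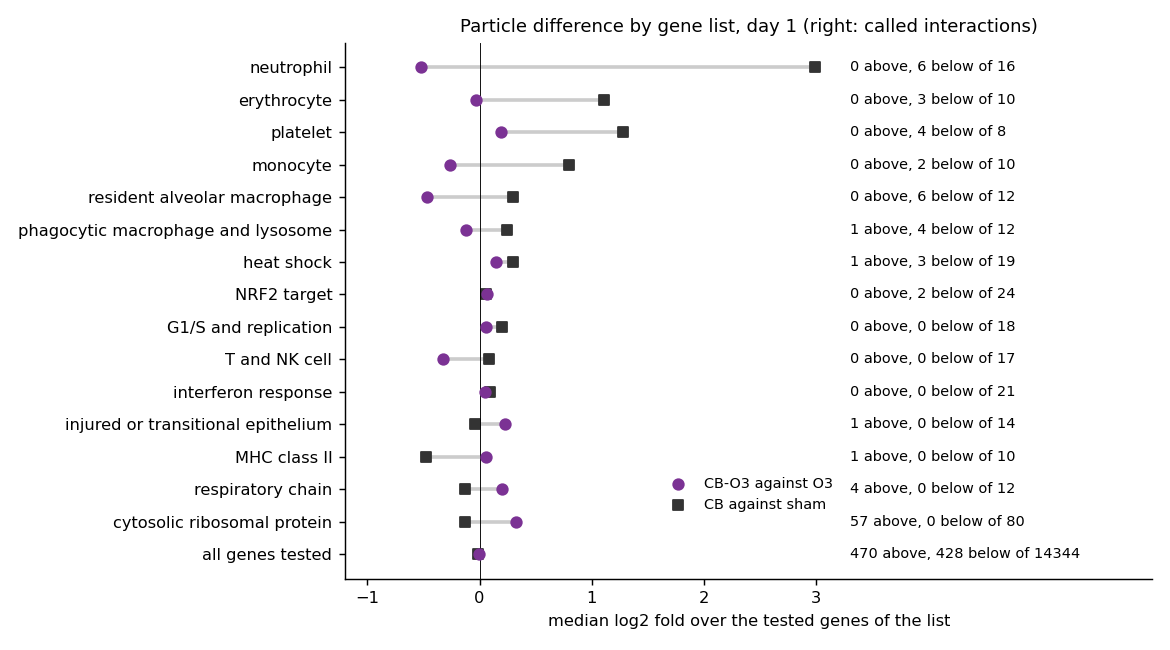
Median log2 fold over the tested genes of 16 lists, for CB-O3 against O3 (circles) and CB against sham (squares), with the number of genes called in the interaction at the right. The neutrophil list has the widest gap, with medians of -0.52 and 2.99, and the ribosomal protein list runs the other way, with 0.33 and -0.13.

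The day 1 interaction was set beside that of day 4 in a fit of all 28 libraries, which tested 14887 genes; no library is shared between the days. At day 4, 204 genes (1.37%) had a called interaction, 114 above 0 and 90 below; that fit called 218 at day 1 (33 above 0, 185 below), and the day 1 values that follow are from the fit of 16. Of the 428 genes below 0 at day 1, 397 had a negative value at day 4 and 31 were called below 0; of the 470 above 0, 444 had a positive value and 40 were called above 0. Over all genes in both fits, 10651 of 14344 (74.3%) had the same sign. The genes called in the same direction on both days, 71, are 34.8% of the day 4 calls and 7.91% of the day 1 calls. The difference between days was called for 0 genes (0.0%) by edgeR, for 1 gene by DESeq2, and for 1 gene by edgeR without CB day 4 replicate 3. In the full edgeR fit 663 genes had an unadjusted p under 0.05, where 744 would be expected with no difference.

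Macrophage genes had called interactions at both times. Gpnmb had a day 4 interaction of -2.30 (adjusted p = 0.00661), Atp6v0d2 of -1.84 (adjusted p = 0.00661), Mrc1 of -1.07 (adjusted p = 0.0493), Abcg1 of -1.02 (adjusted p = 0.0447), Itgax of -1.21 (adjusted p = 0.0332), Ccl6 of -1.69 (adjusted p = 0.0201) and Cd68 of -1.51 (adjusted p = 0.0193). Cxcr1 and Tlr8 were called as well, at -4.43 (adjusted p = 0.0193) and -2.68 (adjusted p = 0.0481). The neutrophil list had a median of -0.96 at day 4, with 1 of 16 called, beside -3.82 at day 1. The platelet list had a median of 1.20 at day 4, against -1.29 at day 1. All 8 of its genes differed between days at an unadjusted p under 0.05 and none after adjustment. At that unadjusted p, 643 of the 14344 genes in both fits differed, among them 8 of 16 neutrophil and 8 of 19 heat shock genes. The heat shock list had a median of 0.36 at day 4, beside -0.24 at day 1. Itga2b was called above 0 at day 4, at 1.23 (adjusted p = 0.0447), and below 0 at day 1, and the adjusted p of its difference between days was 0.223. The ribosomal protein list had a median of 0.53 at day 4, with 10 of 80 called above 0, beside 0.46 at day 1 and 0 of 80 called in that fit.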

How the data were processed

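Lung libraries were made with a stranded polyA kit and sequenced as 51 bp paired-end reads, per the labels' protocols. The authors' deposited table holds estimated counts per gene from Salmon 1.1.0, per the labels; the submitters' processing notes also name mm10, R 3.6.3 and DESeq2, and 17.7% of values are not whole (tolerance 1e-06). Counts were rounded. Symbols came from GENCODE for 35505 of 35880 genes. The 16 day 1 libraries entered edgeR 4.0.16 (R 4.3.3; quasi-likelihood F test, robust, TMM, filterByExpr), with 1 mean per group and no covariate, which left 14344 genes, 99.9% of counts, 12 residual degrees of freedom (biological coefficient of variation 13.7%). The adjusted p threshold was 0.05 (Benjamini-Hochberg over all genes tested). The method was tested on simulated data.

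The members, the 50 gene lists (639 genes) and the tests were chosen with earlier results of these data known. Named genes came from the 12 highest and 12 lowest called interactions with a curated symbol and at least 2 CPM in a group mean. Others came from up to 3 members of every list with the smallest interaction p, called or not, and from 31 fixed genes. Any further gene, such as those of ribosomal proteins, was chosen after its values were seen. Floors of 3 counts cover counting error only. SE is the absolute log2 value divided by the square root of F. Alternatives were other scalings, filters, DESeq2 1.42.0, limma 3.58.1, the 28-library fit, a replicate block, left-out libraries and, chosen after seeing the data, removal of the length and GC trend. Promoters came from RefSeq.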

Additional observations from a re-analysis of the deposited data

Results flagged for a closer look

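In 22 of 404 groups of 4 libraries, over 101 genes, the highest or lowest library stood farther from the rest than Dixon's 95% critical value allows for 4 values; chance gives about 1 in 20, and no explanation was tested. Values are CPM.

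Sham replicate 2 was the high library for 5 myeloid genes: Mmp9 at 19.9 beside 5.24 to 7.21 in the other sham libraries, Clec4d at 8.27 beside 2.32 to 2.50, Wfdc17 at 8.86 beside 2.24 to 3.35, Il1b at 14.3 beside 4.08 to 5.4, and F13a1 at 41.0 beside 16.1 to 17.2. Other sham libraries stood out for Gp9 (replicate 4, 1.58 beside 2.36 to 2.50), Abcg1 (replicate 1, 112.0 beside 92.4 to 95), Cd68 (replicate 4, 20.1 beside 30.6 to 32.0), Bax (replicate 3, 43.6 beside 34.7 to 36.0) and Retnla (replicate 3, 68.5 beside 41.8 to 44.6).

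Among CB libraries, replicate 3 was high for Ppbp at 76.7 beside 33.4 to 34.6, replicate 1 low for Ccl9 at 22.0 beside 34.8 to 35.7, replicate 2 high for Cd63 at 144.0 beside 120.0 to 124.0, and replicate 4 high for Rps20 at 175.0 beside 162.0 to 164.0 and for Bax at 36.6 beside 30.9 to 31.6. Among O3 libraries, replicate 4 was low for Trpm2 at 0.418 beside 2.35 to 2.51 and high for Cd63 at 217.0 beside 179.0 to 184.0 and for Krt8 at 520.0 beside 406.0 to 422.0. O3 replicate 1 was low for Cd68 at 36.7 beside 43.2 to 43.8, and O3 replicate 3 high for Tbxas1 at 12.7 beside 8.45 to 8.55. Among CB-O3 libraries, replicate 3 was low for Retnlg at 2.79 beside 5.80 to 6.40, and replicate 2 low for Cyp1a1 at 2.41 beside 4.89 to 5.09.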

How the results depend on the processing

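The 898 interactions became 1437 with DESeq2 (779 below 0), 2622 with quality-weighted limma-voom (1250 above 0, 1372 below), 218 with all 28 libraries in the fit (33 above, 185 below) and 584 with the length and GC trend removed (220 above), which put the share above 0 at 15.1% and 37.7%, beside 52.3%. Without a count filter 287 lay above 0. Leaving out 1 library gave 242 to 2108 interactions, 126 to 923 above 0 and 111 to 1185 below. Every one of the 898 genes kept its sign in each of these settings, which the selection of these genes in largely the same libraries favours. For CB against sham (158) the counts were 101 without a filter, 415 with DESeq2, 76 with limma-voom, 537 with quality weights, 247 with 28 libraries and 7 to 447 with 1 library left out. For CB-O3 against O3 (259) they were 930 with DESeq2, 2009 with quality weights, 0 with 28 libraries, 0 without sham replicate 2 and O3 replicate 2, 5 with the trend removed, and 0 to 1949 with 1 library left out; in the first 2 settings that gave 0, 2337 and 2958 genes had an unadjusted p under 0.05. For O3 against sham (2163) they were 1441 without sham replicate 2 and O3 replicate 2, and 1227 to 2415 with 1 library left out. The difference between days had 1 call with DESeq2 and 0 to 1 with 1 library left out. The cause of these shifts was not tested.

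With the replicate block the interaction had 675 calls (375 above 0, 300 below) and CB against sham had 21. Same-numbered libraries correlated at -0.364 to 0.276 over 24 pairs, with 7 over 0.1, and 5 of 16 libraries correlated best with their own number, so the numbers were not taken to pair the libraries.

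Of 75 named genes past the threshold, 26 stayed past it with every single library left out and 23 in each other setting that gave an adjusted p, and none changed sign. Genes not called did: the Fosl1 interaction was 0.532 with quality weights and -1.675 to 0.179 with 1 library left out, and that of Pecam1 was 0.093 with the trend removed and -0.127 to 0.044 with 1 library left out. Genes near 3 counts, such as Cxcr1 and Fosl1, are limited by depth.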
